A study of Mus musculus with 14 samples.

Results

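Messenger RNA levels of 56 chromatin regulator genes were followed in mouse bone marrow cells in 2 RNA-seq experiments. The genes encode the KMT2 methyltransferase complexes and their cofactors, the polycomb complexes PRC1, PRC2 and PR-DUB, other histone methyltransferases and demethylases, and the enzymes that write or remove DNA methylation. They were chosen by gene symbol as a list of named regulators, and all 56 were found among the 55367 genes of both count tables. The cells were lineage-negative bone marrow primary cells of wild-type genotype, that is, marrow depleted of mature blood cells, grown with SCF, IL6 and IL3. For the first experiment the cells were transduced with a lentivirus (vector pSMAL) carrying luciferase as control (3 libraries) or the SETBP1-D868N mutant (3 libraries), from 500 ng of total RNA with a Watchmaker mRNA kit. In the second experiment every culture carried SETBP1-D868N and was treated for 4 days with the solvent DMSO (4 libraries) or with 2.5 µM PF-9363 (4 libraries), from 100 ng of total RNA prepared by Novogene. PF-9363 is an inhibitor of MYST histone acetyltransferases. SETBP1 is a nuclear protein mutated in myeloid leukemias. The second experiment has no luciferase group, so the drug was not measured in cells without the mutant. The labels name no strain, age, number of donor animals or selection of transduced cells. The replicates are therefore separate libraries, and whether they came from separate animals is not given, so p-values measure the spread between these libraries.

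KMT2 enzymes methylate histone H3 on lysine K4 at active promoters and enhancers, and need the shared core subunits WDR5, RBBP5, ASH2L and DPY30. Menin (Men1) and LEDGF (Psip1) tether KMT2A to chromatin at genes such as the HOX-A cluster and Meis1 in blood progenitors. PRC2 places the repressive mark H3K27me3 through EZH1 or EZH2, and PRC1 adds ubiquitin to histone H2A, which PR-DUB removes. DNMT1 copies DNA methylation at replication, DNMT3A and DNMT3B add it anew, and TET enzymes oxidize it. Dnmt3a, Tet2, Asxl1 and Ezh2 are recurrently mutated in human myeloid disease.

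The 6 libraries with luciferase or SETBP1-D868N alone held 60147266 to 68730322 counts, and the 8 of the drug experiment 7083731 to 10359093. Values are CPM, counts scaled to a common library size with TMM factors, and the experiments were normalized and tested separately. Markers of lineages were read as a check of the label. The 7 stem and progenitor markers read (Kit, Cd34, Flt3, Ly6a, Myb, Gata2, Slamf1) had counts in every group, with summed levels of 463 to 1170 CPM. Neutrophil markers summed to 24400 to 25400 CPM with luciferase and 16300 to 18700 with SETBP1-D868N. In the drug experiment they summed to 18100 to 21400 CPM with DMSO and 16200 to 17600 with PF-9363. Single markers differed. With SETBP1-D868N 3 of the 9 were called higher and 6 lower. With PF-9363 1 of the 9 was called higher, 4 lower and 4 were not called. Granule genes of early neutrophil precursors were among those that fell, Elane from a mean of 1453 to 1.75 CPM and Mpo from 2320.0 to 6.35 CPM. S100a8 and S100a9 were not called. Monocyte and macrophage markers summed to 1160 to 1170 CPM with luciferase, 811 to 855 with SETBP1-D868N, 1160 to 1300 with DMSO and 3130 to 3710 with PF-9363. Dendritic cell markers summed to 1630 to 1720 CPM with luciferase, 819 to 981 with SETBP1-D868N, 159 to 187 with DMSO and 806 to 1010 with PF-9363. With luciferase most of that sum came from Cd74 (mean 1248 CPM) and H2-Ab1 (272 CPM), so it mainly follows these genes. Only 4 of the 7 dendritic markers were tested with PF-9363, and 3 were called higher. Erythroid and megakaryocyte markers summed to 47.9 to 58.1 CPM with DMSO and 219 to 244 with PF-9363. Only 5 of these 8 markers were tested there, with 3 called higher and 1 lower (median log2 fold change 0.45). The part of such lineage differences in the changes of the members was not tested. In bulk RNA, fewer cells of a type and less of a transcript per cell cannot be told apart.

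SETBP1-D868N went with small differences in these regulators. Of the 56 members 18 were called higher and 6 lower, 42.9% in all, where 47.2% of the 15794 genes tested were called (24.5% higher and 22.7% lower). No called member reached 1.5-fold, whereas 9.98% of all genes were called with that size of change (2.86% higher and 7.12% lower). The members that rose included subunits that KMT2 complexes share (Dpy30, Ash2l), PRC2 subunits (Mtf2, Phf19, Suz12, Ezh2) and Dnmt3b. The members that fell were Aff4, Dnmt3a, Kdm6b, Phc1, Ezh1 and Nsd3. A call means an adjusted p under 0.05 in edgeR's quasi-likelihood test, adjusted over all genes tested. The groups did not overlap for 32 of the 56 members (57.1%) and for 56.7% of all genes.

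PF-9363 went with larger differences in both directions. It gave 24 members called higher and 25 lower, 87.5% of the 56, where 76% of 13456 genes were called (36.6% higher and 39.4% lower). At least 1.5-fold changes were called for 17 members higher and 18 lower, 62.5% of them, against 52.6% of all genes (24.6% higher and 28% lower). Bmi1, Kmt2c, Phc1, Tet3 and Setd1b rose most. Suv39h1, Dnmt1, Ezh2, Dpy30 and Kdm2b fell most. The groups did not overlap for 45 members (80.4%) and for 70.3% of all genes. Without regard to sign, the middle member changed by 0.79 on the log2 scale, beside 0.65 for the middle gene of all tested. Scaling by library size alone moved the log2 fold change of the median gene by −0.23 in this experiment, so the changes are relative to the scaling.

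**Figure D1:**
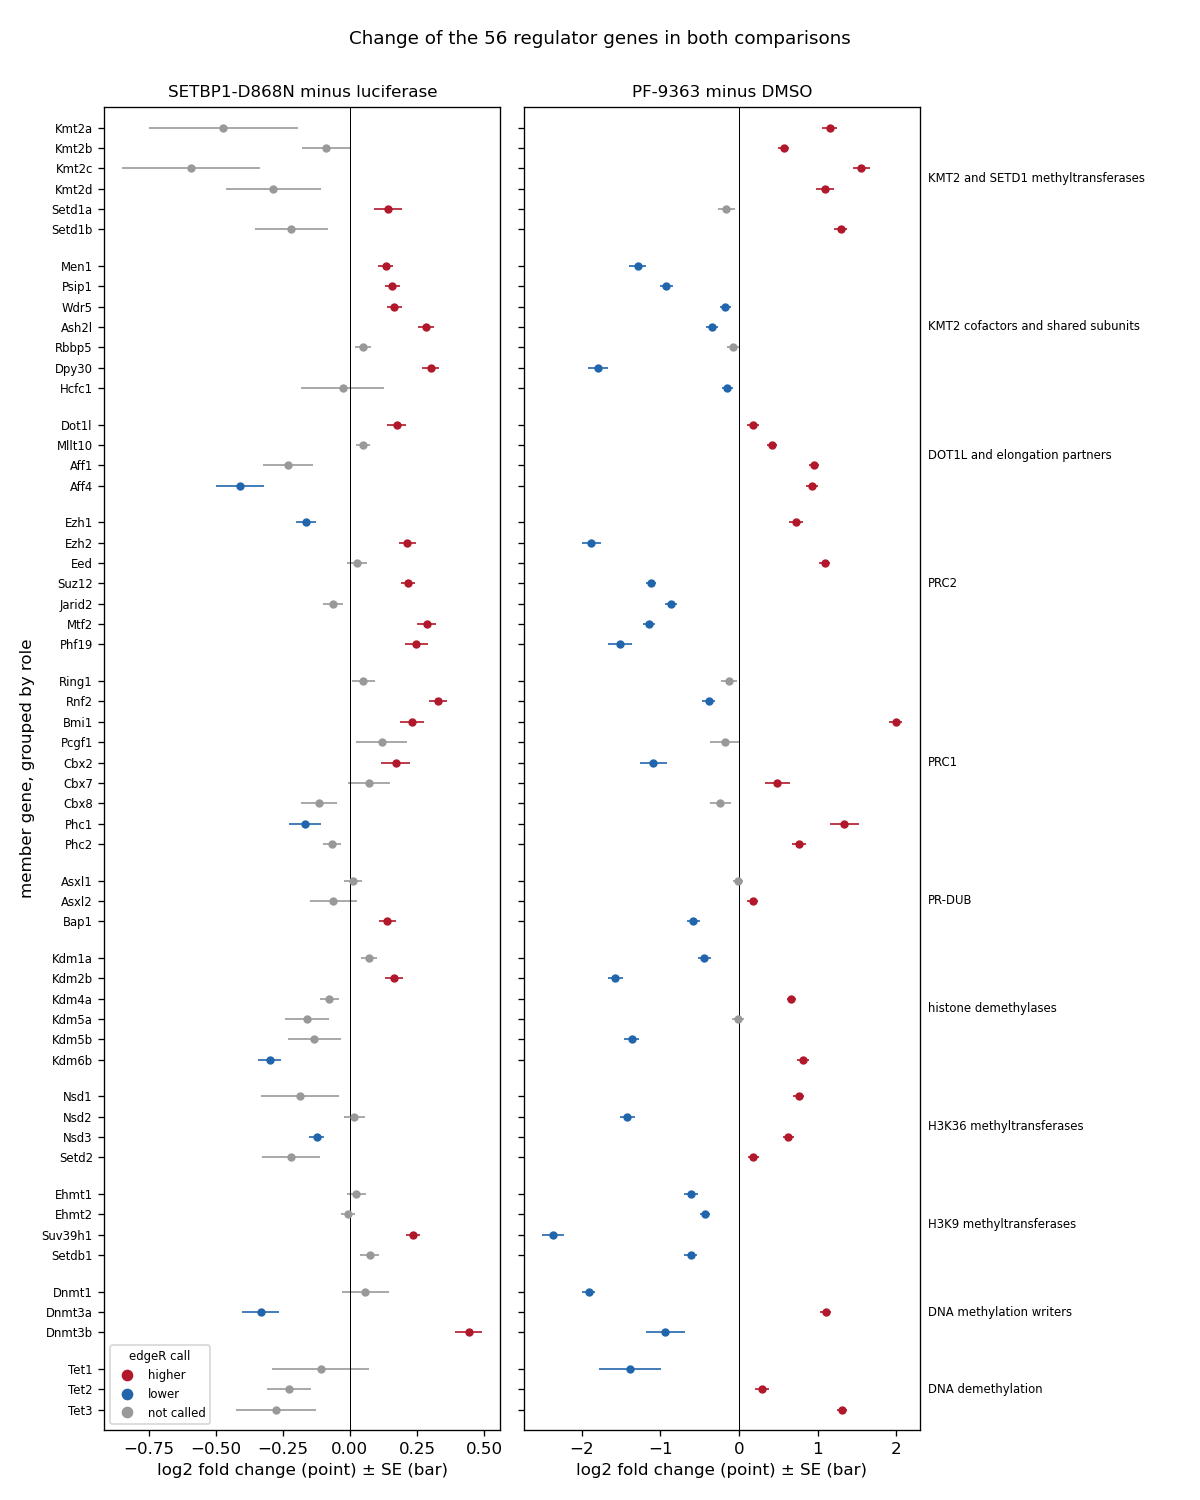
Log2 fold change (horizontal axis) of each of the 56 members, grouped by role, for SETBP1-D868N minus luciferase (left, 3 libraries per group) and PF-9363 minus DMSO (right, 4 per group). Bars are the standard error and colors the edgeR call. The left panel spans −0.59 to 0.44 and the right −2.37 to 1.99.

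Of the 6 enzymes of the KMT2 and SETD1 family, 5 rose with PF-9363, while with SETBP1-D868N 1 was called higher and none lower. Over all genes, 36.6% were called higher with PF-9363 and 24.5% with SETBP1-D868N. Kmt2a, the MLL1 gene on mouse chromosome 9 (chr9:44803355-44881296, GRCm38), stood at 36.3, 56.1, 45.0 and 42.8 CPM in the DMSO libraries and at 93.8, 101, 106 and 101 CPM with PF-9363. All 4 treated libraries lay above all 4 controls (log2 fold change 1.16, SE 0.096, edgeR adjusted p 4.06e-10). Kmt2c, whose product acts at enhancers, went from 47.1, 74.0, 56.4 and 63.3 CPM to 167, 169, 189 and 183 CPM (log2 fold change 1.56, SE 0.11, edgeR adjusted p 5.67e-09). Its paralog Kmt2d rose by 1.10, Setd1b by 1.29 and Kmt2b by 0.57 on the log2 scale, each without overlap between groups. Setd1a, with a log2 fold change of −0.16 (edgeR adjusted p 0.202), was not called. The 5 calls held when library size alone was used for scaling. With an offset for transcript length and GC content they also held, but Kmt2a was at 0.63, Kmt2d at 0.53 and Kmt2b at 0.34.

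In the first experiment the same large genes varied between libraries of one group. Kmt2a stood at 77.3, 47.6 and 48.0 CPM with luciferase and 34.4, 40.9 and 49.6 CPM with SETBP1-D868N (log2 fold change −0.47, SE 0.28, edgeR adjusted p 0.247). The first luciferase library was far above the other libraries, and the third SETBP1-D868N library lay above the 2 lower controls. Kmt2c stood at 78.2, 51.0 and 50.2 CPM and 32.4, 40.5 and 46.4 CPM, with no overlap between groups but no call (log2 fold change −0.59, SE 0.26, edgeR adjusted p 0.138). Of 15 alternatives, it was called in 1, the fit without robust estimation. Without the first luciferase library the values were −0.20 for Kmt2a and −0.35 for Kmt2c. Setd1a was called higher (0.14, edgeR adjusted p 0.044), a call lost in 9 of 15 alternatives and with overlapping groups, and the other 3 enzymes of the family were not called.

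Most cofactors and shared subunits of the KMT2 complexes fell with PF-9363, where most of the enzymes rose. With SETBP1-D868N 5 of the 7 cofactors were called higher and none lower. With PF-9363 none was called higher and 6 lower, where 39.4% of all genes were lower. These sets also differ in transcript length. The enzymes that rose have 8469 to 19823 bases, and the cofactors 789 to 3385 bases apart from Hcfc1 (8262). The part of length in this contrast was not tested. Men1 encodes menin (chr19:6334979-6340891). It rose slightly from 90.4, 93.3 and 93.9 CPM with luciferase to 103, 100.0 and 102 CPM with SETBP1-D868N (log2 fold change 0.13, SE 0.028, edgeR adjusted p 0.00206). With PF-9363 it fell from 67.8, 55.2, 69.8 and 74.3 CPM to 31.4, 28.4, 28.2 and 21.8 CPM (log2 fold change −1.28, SE 0.11, edgeR adjusted p 7.72e-11). In both experiments the groups were apart in every library. Psip1, which encodes the menin partner LEDGF, stood at 101, 103 and 106 CPM with luciferase and 116, 114 and 116 CPM with SETBP1-D868N (log2 fold change 0.16, SE 0.028, edgeR adjusted p 0.000616). It stood at 93.7, 85.4, 89.0 and 76.4 CPM with DMSO and 49.5, 49.6, 40.0 and 41.9 CPM with PF-9363 (log2 fold change −0.92, SE 0.084, edgeR adjusted p 5.94e-11).

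Dpy30, the smallest member transcript and a subunit that stimulates all KMT2 and SETD1 enzymes, showed the largest shift of this group. Its luciferase libraries held 55.2, 57.5 and 55.5 CPM and the SETBP1-D868N libraries 70.2, 68.0 and 69.1 CPM (log2 fold change 0.30, SE 0.031, edgeR adjusted p 8.55e-06). With DMSO it stood at 42.8, 36.5, 58.3 and 43.1 CPM and with PF-9363 at 11.9, 14.4, 12.9 and 12.9 CPM (log2 fold change −1.80, SE 0.13, edgeR adjusted p 3.23e-12). The drug-treated libraries were all far below their controls. Ash2l, another core subunit, rose from 70.2, 70.1 and 69.4 CPM to 85.5, 86.9 and 83.03 CPM with SETBP1-D868N (log2 fold change 0.28, SE 0.029, edgeR adjusted p 8.06e-06) and fell by 0.34 with PF-9363. Wdr5 was called higher by 0.17 in SETBP1-D868N cells and lower under PF-9363 (−0.17). The latter call, with overlapping groups, was lost in 7 of 17 alternatives. Rbbp5 was called in neither comparison (0.051 and −0.072). Hcfc1, a host cell factor found in SETD1 and KMT2 complexes, was called with PF-9363 only (−0.15), with overlapping groups, and that call was lost in 8 of 17 alternatives.

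DOT1L methylates H3K79, MLLT10 is its cofactor, and AFF1 and AFF4 are scaffolds of the super elongation complex. With PF-9363 all 4 were called higher, where 36.6% of all genes were. Aff4 stood at 131, 154, 116 and 128 CPM with DMSO and 234, 258, 266 and 249.5 CPM with PF-9363 (log2 fold change 0.93, SE 0.072, edgeR adjusted p 2.83e-12). Aff1 rose by 0.96 and Mllt10 by 0.42. The call of Dot1l (0.18) turned to −0.052 when library size alone was used for scaling and was lost in 5 further alternatives. With SETBP1-D868N Aff4 fell from 178, 153 and 154 CPM to 111, 122 and 131 CPM (log2 fold change −0.41, SE 0.089, edgeR adjusted p 0.0142). All SETBP1-D868N libraries were below the controls. The call was lost without the second SETBP1-D868N library and with the replicate number as a block. Dot1l was higher by 0.17 with SETBP1-D868N, while Aff1 and Mllt10 were not called.

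PRC2 changed in a divided way. With PF-9363 5 of the 7 members fell (Ezh2, Phf19, Mtf2, Suz12, Jarid2) and 2 rose (Eed, Ezh1), all at least 1.5-fold. Over all genes, 52.6% were called with that size of change. Ezh2, the methyltransferase prevalent in dividing cells (chr6:47530139-47595341), went from 98.2, 76.0, 81.7 and 89.5 CPM with DMSO to 26.2, 28.9, 19.0 and 19.7 CPM with PF-9363 (log2 fold change −1.87, SE 0.12, edgeR adjusted p 2.72e-11). Its paralog Ezh1, which is prevalent in resting cells, went the other way, from 39.7, 44.0, 37.1 and 49.2 CPM to 64.6, 68.3, 68.0 and 79.2 CPM (log2 fold change 0.72, SE 0.089, edgeR adjusted p 2.97e-08). No library of either gene overlapped the other group. Suz12, the scaffold of the complex, fell from 268, 270.0, 264 and 239 CPM to 125, 130.4, 109 and 115 CPM (log2 fold change −1.12, SE 0.066, edgeR adjusted p 4.70e-15). Eed, the subunit that reads H3K27me3, rose by 1.09 (SE 0.073, edgeR adjusted p 6.71e-14).

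The accessory subunits Phf19, Mtf2 and Jarid2, which help direct PRC2 to chromatin, also fell. Phf19 went from 28.5, 24.6, 25.9 and 28.5 CPM to 11.5, 11.9, 8.25 and 5.96 CPM (log2 fold change −1.51, SE 0.15, edgeR adjusted p 3.14e-09). Mtf2 went from 90.9, 86.2, 91.1 and 88.1 CPM to 44.0, 40.1, 39.5 and 37.2 CPM (log2 fold change −1.15, SE 0.075, edgeR adjusted p 4.17e-14). Jarid2 fell by 0.86. Not all accessory subunits did: outside the 56 genes, Phf1, a relative of Mtf2 and Phf19, rose by 1.57 and Lcor by 1.11 (named after their values were seen). Beside these falls stand the 20 cell division genes of a list (such as Mki67, Top2a and Mcm2). All 20 were called lower with PF-9363, where 39.4% of all genes were, with a median log2 fold change of −2.79. Their summed level was 4310 to 4640 CPM with DMSO and 668 to 1080 CPM with PF-9363. The part of cell division in the change of Ezh2, Phf19, Suv39h1, Dnmt1 and other members was not tested.

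With SETBP1-D868N the PRC2 members moved little and mostly in the reverse direction. Ezh2 stood at 88.3, 86.2 and 85.3 CPM with luciferase and 104, 100.4 and 97.2 CPM with the mutant (log2 fold change 0.21, SE 0.032, edgeR adjusted p 0.000147). Suz12 stood at 214, 213 and 215 and 240.5, 252 and 253 CPM (log2 fold change 0.22, SE 0.027, edgeR adjusted p 3.91e-05). These were rises without overlap, as were those of Mtf2 and Phf19. Mtf2 rose from 73.1, 74.8 and 79.2 CPM to 93.7, 93.9 and 89.3 CPM (log2 fold change 0.29, SE 0.036, edgeR adjusted p 4.12e-05). Phf19 rose from 31.2, 30.8 and 30.2 CPM to 34.4, 38.2 and 36.9 CPM (log2 fold change 0.25, SE 0.044, edgeR adjusted p 0.000582). Ezh1 was the member of the complex that fell, from 38.1, 40.4 and 39.3 CPM to 35.2, 35.5 and 34.5 CPM (log2 fold change −0.16, SE 0.037, edgeR adjusted p 0.00319). Cell division genes were called higher in 16 of 20 cases in this experiment, beside 24.5% of all genes, with a median of 0.14. Their part in these rises was not tested.

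The promoters of Ezh2, Suz12 and Phf19 are shown because, of the 5 PRC2 members that fell, these 3 hold letters of the motif bound by E2F, the factor family of S-phase genes. The windows of Mtf2 and Jarid2 held none of the motifs searched. Windows reach from 250 bases before to 50 bases after the start site (RefSeq, GRCm38.p6), and 45 of the 56 members had one of 300 bases. The E2F letters searched were TTTCCCGC, TTTGGCGC, TTTGCCGC and TTTCGCGC on both strands. Among members called lower with PF-9363, 3 of 21 windows held them (14.3%), namely Ezh2, Suz12 and Phf19. None of the 19 windows of members called higher did, and 2.26% of all 32851 windows did. These shares are not like for like. Each member has a single window, the nearest to its annotated gene start, while all windows are not limited to a single one per gene. Some member windows lie far from that start: Aff1 (61788 bases), Cbx7 (38473) and Tet3 (17406) among the higher, Tet1 (21672) among the lower. Windows of all genes called lower were not counted. The 2 other motifs searched on both strands, TTTGAA (the cell cycle homology region of mitotic genes) and CACGTG (the E-box), were in 19% and 9.52% of the lower windows, 15.8% and 21.1% of the higher ones, and 17.9% and 7.15% of all windows. A match describes letters and is no evidence of binding. The stretches below are 5′ to 3′ on the strand of the gene, with matches in capitals, and Bmi1, the member that rose most, is shown for comparison.
Ezh2 (chr6:47595019-47595118, minus strand, E2F letters 3 bases past the start site): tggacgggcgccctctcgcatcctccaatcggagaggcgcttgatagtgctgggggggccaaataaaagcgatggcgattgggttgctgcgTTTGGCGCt
Suz12 (chr11:79992856-79992955, plus strand, E2F letters, then TTTGAA on the reverse strand): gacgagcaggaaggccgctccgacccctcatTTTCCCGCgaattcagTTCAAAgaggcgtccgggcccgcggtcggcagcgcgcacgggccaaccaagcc
Phf19 (chr2:34914127-34914226, minus strand, E2F letters on the reverse strand): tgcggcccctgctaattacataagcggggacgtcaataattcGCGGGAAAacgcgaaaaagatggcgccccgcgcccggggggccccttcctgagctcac
Bmi1 (chr2:18676768-18676867, plus strand, E-box): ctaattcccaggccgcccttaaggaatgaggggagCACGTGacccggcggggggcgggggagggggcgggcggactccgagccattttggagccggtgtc

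**Figure D2:**
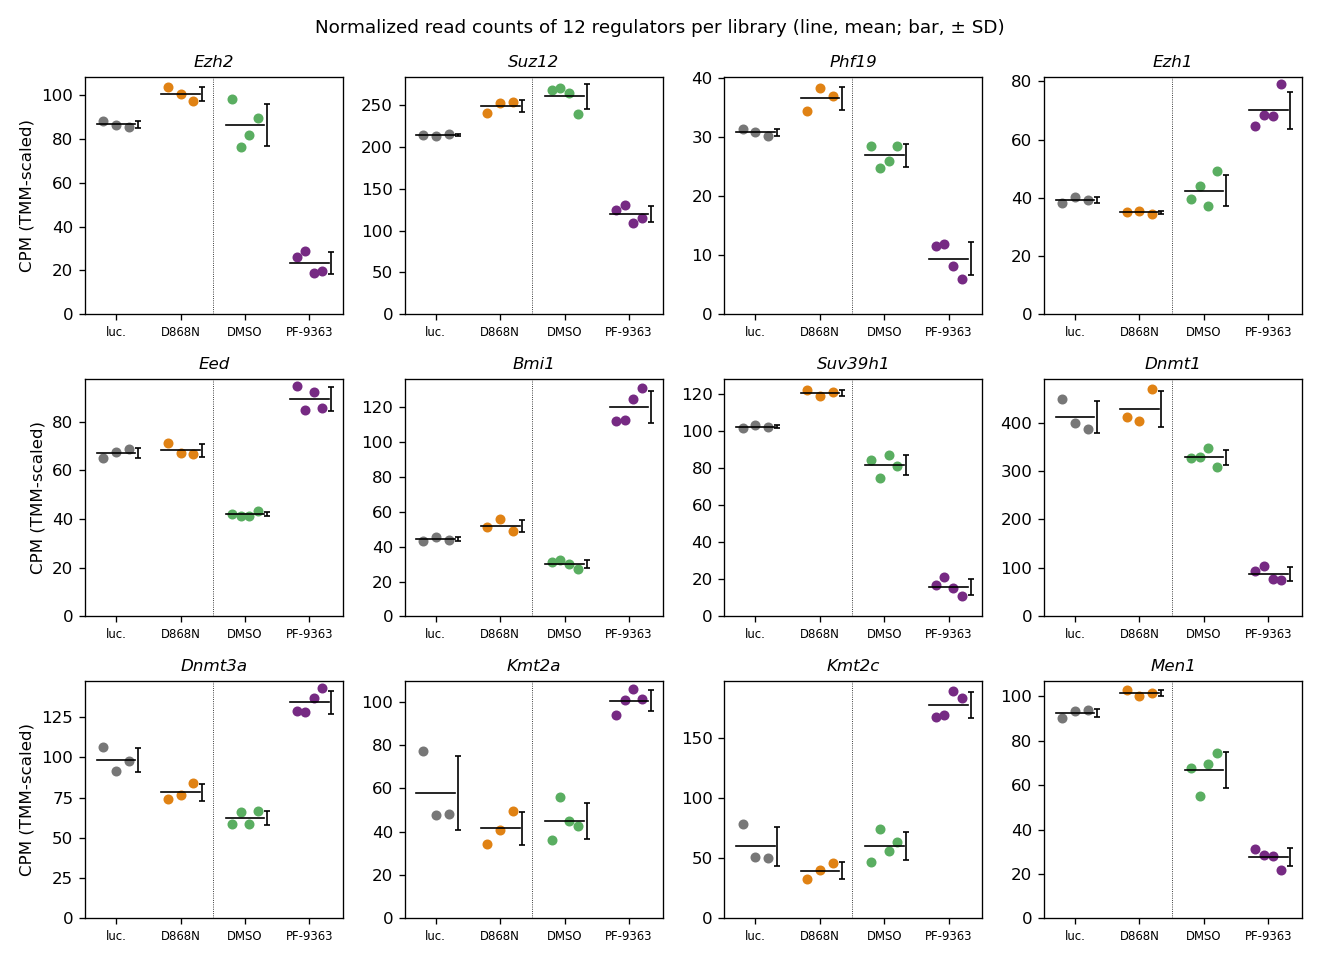
TMM-scaled CPM (vertical axis, from 0) of 12 members in each library. Points are libraries, lines group means and bars ± SD, with the luciferase and SETBP1-D868N (D868N) libraries left of the dotted line and those of the second experiment right of it. Ezh2, Suz12, Phf19, Suv39h1, Dnmt1 and Men1 are lower and Ezh1, Eed, Bmi1, Dnmt3a, Kmt2a and Kmt2c higher in all 4 PF-9363 libraries than in all 4 DMSO libraries.

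PRC1 members did not change as a unit. Bmi1, the PCGF subunit of canonical PRC1 and a self-renewal factor of blood stem cells (chr2:18677018-18686629), rose with PF-9363 from 31.2, 32.3, 30.2 and 27.0 CPM to 112, 113, 125 and 131 CPM (log2 fold change 1.99, SE 0.079, edgeR adjusted p 4.68e-19), the largest rise among the members. With SETBP1-D868N it was also higher, from 43.5, 45.5 and 43.9 CPM to 51.1, 55.8 and 49.1 CPM (log2 fold change 0.23, SE 0.046, edgeR adjusted p 0.00132). Phc1, a polyhomeotic subunit, stood at 3.87, 3.49, 3.75 and 3.99 CPM with DMSO and 8.45, 9.02, 9.96 and 10.9 CPM with PF-9363 (log2 fold change 1.34, SE 0.18, edgeR adjusted p 1.41e-07). Its values of 16.5, 17.6 and 19.2 CPM with luciferase and 15.4, 16.6 and 15.4 CPM with SETBP1-D868N gave a small call in the lower direction (log2 fold change −0.17, SE 0.061, edgeR adjusted p 0.0398), with overlapping groups, which was lost in 7 of 15 alternatives. Phc2 rose by 0.76 and Cbx7, a chromodomain reader, by 0.49 with PF-9363. The Cbx7 call was lost when library size alone was used for scaling.

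Other PRC1 subunits fell or were not called. Cbx2, another chromodomain reader, stood at 12.7, 11.8, 9.27 and 13.0 CPM with DMSO and 6.28, 5.67, 5.45 and 4.55 CPM with PF-9363 (log2 fold change −1.09, SE 0.17, edgeR adjusted p 1.42e-06). With luciferase it stood at 10.04, 10.1 and 10.1 CPM and with SETBP1-D868N at 10.97, 11.6 and 11.4 CPM (log2 fold change 0.17, SE 0.055, edgeR adjusted p 0.0214), a call lost in 7 of 15 alternatives. Rnf2, the RING1B ubiquitin ligase, rose from 47.5, 50.1 and 47.3 CPM to 60.9, 61.8 and 59.3 CPM with SETBP1-D868N (log2 fold change 0.33, SE 0.034, edgeR adjusted p 9.95e-06) and fell by 0.39 with PF-9363. Ring1, Pcgf1 and Cbx8 were called in neither comparison, with log2 fold changes of −0.12, −0.17 and −0.24 with PF-9363. Of the PR-DUB members, Bap1, the deubiquitinase, rose in SETBP1-D868N cells (0.14) and fell under PF-9363 (−0.58). Its partner Asxl1 was called in neither comparison (0.012 and −0.013). Asxl2 was called higher with PF-9363 (0.18), but its groups overlapped and the value turned to −0.054 when library size alone was used for scaling and to −0.15 with an offset for transcript length and GC content.

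Histone demethylases split by enzyme. Kdm2b, which brings a variant PRC1 to CpG islands, stood at 62.5, 61.5 and 61.8 CPM with luciferase and 69.7, 66.4 and 71.9 CPM with SETBP1-D868N (log2 fold change 0.16, SE 0.034, edgeR adjusted p 0.00174). It fell from 54.5, 51.2, 50.4 and 48.1 CPM with DMSO to 18.1, 17.3, 18.2 and 15.2 CPM with PF-9363 (log2 fold change −1.57, SE 0.096, edgeR adjusted p 1.03e-14), with the treated libraries far below the controls. Kdm5b, an H3K4 demethylase, fell from 65.2, 76.8, 60.3 and 75.4 CPM to 26.6, 23.2, 30.2 and 28.4 CPM (log2 fold change −1.36, SE 0.096, edgeR adjusted p 2.63e-13), while its paralog Kdm5a was not called (−0.0098). Kdm6b, which removes H3K27me3, moved opposite to Ezh2 in both experiments. It fell with SETBP1-D868N from 105, 98.8 and 97.9 CPM to 77.6, 81.1 and 86.3 CPM (log2 fold change −0.30, SE 0.041, edgeR adjusted p 0.00011). It rose with PF-9363 from 100.0, 106, 88.1 and 122 CPM to 183, 185, 182 and 182 CPM (log2 fold change 0.81, SE 0.074, edgeR adjusted p 1.41e-10). Kdm4a rose by 0.67 and Kdm1a (LSD1) fell by 0.44 with PF-9363, and neither was called with SETBP1-D868N.

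The writers of H3K36 methylation also divided. Nsd2 fell with PF-9363 from 140.1, 131, 121 and 119 CPM to 47.4, 54.5, 52.6 and 37.3 CPM (log2 fold change −1.42, SE 0.094, edgeR adjusted p 8.49e-12), and the groups were far apart. Nsd1 rose by 0.76. Nsd3 rose from 103, 111, 96.1 and 115 CPM to 172, 157, 172 and 156 CPM (log2 fold change 0.63, SE 0.067, edgeR adjusted p 1.63e-09). Setd2 was called higher by 0.18, with overlapping groups, and turned to −0.047 when library size alone was used for scaling. With SETBP1-D868N the Nsd3 libraries stood at 117, 114 and 114 CPM and 105, 105 and 107 CPM (log2 fold change −0.12, SE 0.027, edgeR adjusted p 0.0026). That was the one call of this group in the first experiment, and it turned to 0.028 with the length and GC offset.

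All 4 writers of H3K9 methylation fell with PF-9363, where 39.4% of all genes were called lower. Suv39h1, which builds the H3K9me3 of constitutive heterochromatin, went from 84.5, 74.7, 87.3 and 81.3 CPM with DMSO to 16.8, 21.3, 15.1 and 10.7 CPM with PF-9363 (log2 fold change −2.37, SE 0.14, edgeR adjusted p 1.33e-10). This was the largest change of any member, and the highest treated library was far below the lowest control. Setdb1 fell by 0.61, Ehmt1 by 0.61 and Ehmt2 by 0.43, each without overlap. With SETBP1-D868N Suv39h1 was higher, at 122, 119 and 121 CPM against 102, 104 and 102 CPM with luciferase (log2 fold change 0.24, SE 0.027, edgeR adjusted p 1.79e-05), and the other 3 were not called.

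DNA methyltransferases differed by type. Dnmt1, the maintenance enzyme, fell with PF-9363 from 327, 329.9, 347 and 308 CPM to 93.3, 104, 76.9 and 74.6 CPM (log2 fold change −1.91, SE 0.085, edgeR adjusted p 2.00e-14). With SETBP1-D868N it was not called (0.058). Dnmt3a, a tumor suppressor of blood stem cells, fell with SETBP1-D868N from 106, 91.6 and 97.8 CPM to 74.0, 76.6 and 84.2 CPM (log2 fold change −0.33, SE 0.068, edgeR adjusted p 0.00677). With PF-9363 it rose from 58.4, 66.1, 58.6 and 66.7 CPM to 129, 128, 137 and 143 CPM (log2 fold change 1.10, SE 0.07, edgeR adjusted p 2.21e-14). In neither experiment did its groups overlap. Dnmt3b moved opposite to Dnmt3a. It rose with SETBP1-D868N from 10.9, 11.2 and 10.6 CPM to 14.8, 14.7 and 15.0 CPM (log2 fold change 0.44, SE 0.05, edgeR adjusted p 1.92e-05), the largest called change of the members in that experiment. With PF-9363 it fell from 5.65, 4.39, 4.68 and 3.90 CPM to 2.06, 3.35, 2.33 and 2.06 CPM (log2 fold change −0.93, SE 0.25, edgeR adjusted p 0.00151), from 57, 44, 50 and 43 counts to 20, 26, 15 and 19 counts.

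All 3 TET dioxygenases were called with PF-9363, where 76% of all genes were. None was called with SETBP1-D868N, where 47.2% of all genes were. Tet3, at 9.62 CPM per kilobase of transcript with DMSO against 4.43 for Tet2, rose by 1.31 (SE 0.064, edgeR adjusted p 5.91e-17). Tet2 rose by 0.30, a call lost when library size alone was used for scaling (0.068) or with the length and GC offset (0.041). Tet1 had the lowest level per kilobase of the 56 in every group. It stood at 1.19, 2.00, 2.15 and 2.27 CPM with DMSO, from 12, 20, 23 and 25 counts, and at 0.618, 0.902, 0.467 and 0.868 CPM with PF-9363, from 6, 7, 3 and 8 counts (log2 fold change −1.38, SE 0.39, edgeR adjusted p 0.00234). Per kilobase of transcript, the CPM levels of the members with DMSO ran from 0.132 for Tet1 to 59.5 for Suz12. With PF-9363 they ran from 0.0497 for Tet1 to 43.2 for Eed.

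Ratios of paralogs within a library do not depend on library scaling, and 8 pairs were compared by exact two-sided permutation over libraries. A trend on transcript length or GC content can remain in them, and they were not computed with the offset for it. With PF-9363 all 8 ratios were apart in every library, at p = 0.0286, the smallest that 4 against 4 can give by exact permutation (adjusted p 0.0286 over the 8). The log2 ratio of Ezh1 to Ezh2 counts went from −1.02 ± 0.24 with DMSO to 1.59 ± 0.38 with PF-9363 (mean ± SD, n = 4 each). Ezh1 counts were below Ezh2 counts in all 4 DMSO libraries and above them in all 4 PF-9363 libraries. These are ratios of counts, not of levels per length. Nsd1 to Nsd2 went from −0.043 ± 0.20 to 2.15 ± 0.28, and Dnmt3a to Dnmt3b from 3.74 ± 0.32 to 5.77 ± 0.37. Tet2 to Tet3 fell from −1.36 ± 0.099 to −2.39 ± 0.14. Smaller shifts were seen for Kmt2a to Kmt2b (0.60), Kmt2c to Kmt2d (0.46), Cbx7 to Cbx8 (0.73) and Asxl1 to Asxl2 (−0.19). With the length and GC offset, the log2 fold changes were 0.63 for Kmt2a and 0.34 for Kmt2b. They were 1.09 for Kmt2c and 0.53 for Kmt2d, and −0.22 for Asxl1 and −0.15 for Asxl2.

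With SETBP1-D868N no ratio could pass, since 3 against 3 cannot go below 0.1 in an exact permutation test. The Ezh1 to Ezh2 ratio was −1.14 ± 0.063 with luciferase and −1.52 ± 0.037 with the mutant. That of Dnmt3a to Dnmt3b was 3.17 ± 0.13 and 2.40 ± 0.085 (mean ± SD, n = 3 each). These ratios, and those of Kmt2a to Kmt2b and Kmt2c to Kmt2d, were lower in all 3 mutant libraries, each with an exact permutation p of 0.1 (adjusted p 0.2). The other 4 ratios overlapped between groups.

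**Figure D3:**
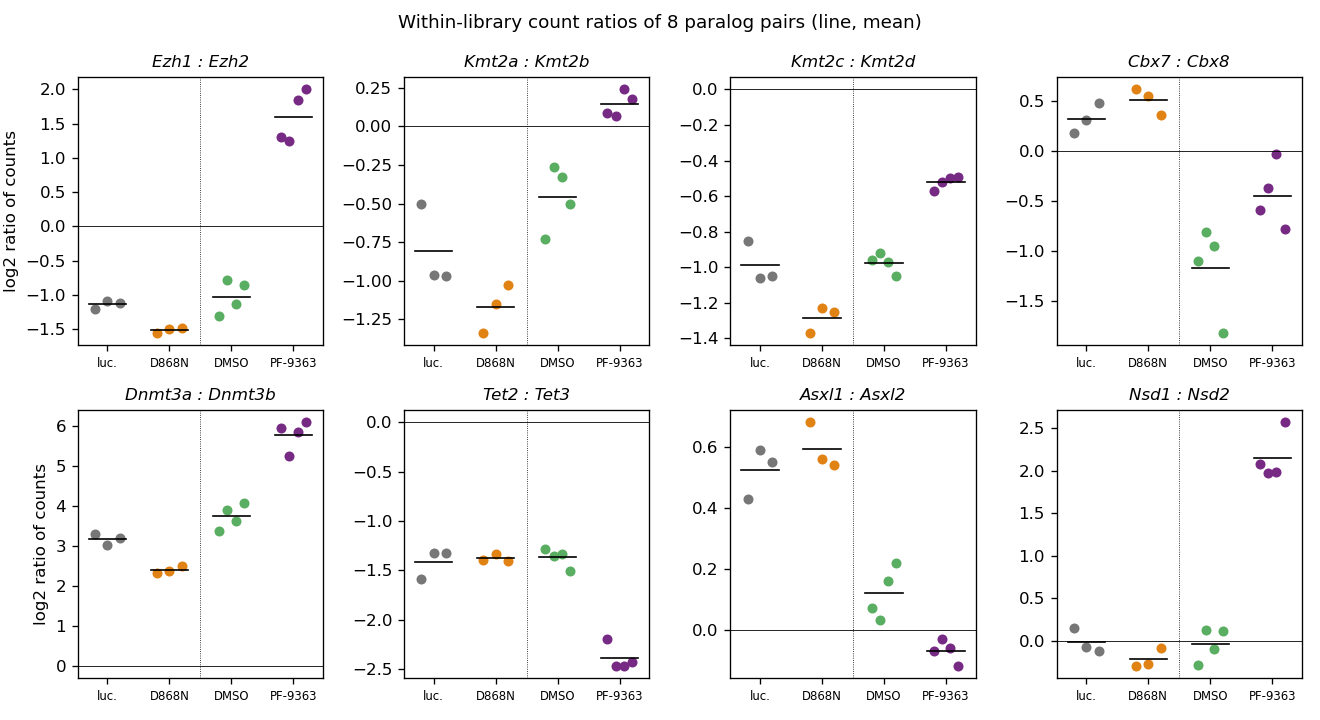
Log2 ratio of the counts of 8 paralog pairs (vertical axis) in each library, with group means as lines. The luciferase and SETBP1-D868N (D868N) libraries are left of the dotted line and the DMSO and PF-9363 libraries right of it. The Ezh1 to Ezh2 ratio lies below 0 in all groups but PF-9363.

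Set side by side, the 2 comparisons called 23 members in common. Of these, 15 rose in SETBP1-D868N cells and fell under PF-9363, and 6 did the reverse. These opposite calls were 91.3% of the members called in both, beside 79.4% of the 5444 genes called in both among the 12376 tested in both. Most genes called in both thus had opposite directions, and the pattern was not tested as particular to the members. Bmi1 and Dot1l were higher in both. The 15 make up 83.3% of the 18 members called higher with SETBP1-D868N, and the same share over all genes was 62.8%. A further 26 members were called with PF-9363 alone, among them Kmt2a, Kmt2c, Dnmt1 and Nsd2, Setd1a was called with SETBP1-D868N alone, and 6 were called in neither. No library is shared between the experiments, and no test was made between them. Across the 56 members the log2 fold changes had a Pearson's r of −0.64 and a Spearman's rho of −0.67, beside −0.35 and −0.44 over the 12376 genes, given as a description since genes are not independent replicates. The members' changes also followed transcript length, with opposite signs in the 2 comparisons (Spearman's rho −0.73 and 0.42). The part of length in the correlation was not tested.

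**Figure D4:**
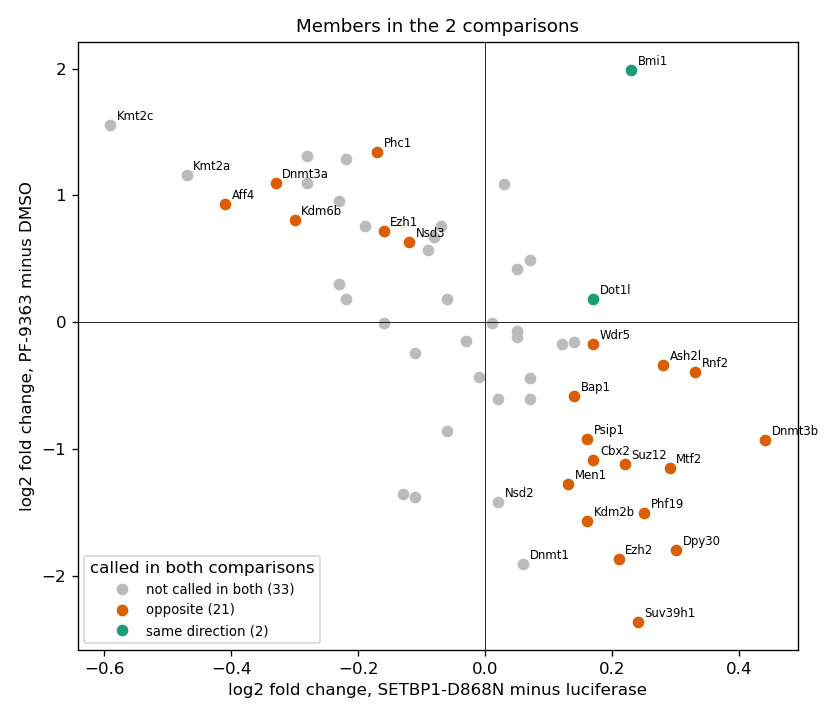
Log2 fold change of each member with SETBP1-D868N minus luciferase (horizontal) against PF-9363 minus DMSO (vertical). Orange points were called in both comparisons in opposite directions (21), green points in the same direction (2) and grey points in at most 1 comparison (33).

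Transcript length moved with these values. The longest basic GENCODE transcripts of the members run from 789 to 19823 bases. Spearman's rho between length and log2 fold change over the 56 was −0.73 with SETBP1-D868N and 0.42 with PF-9363, against −0.087 and 0.072 over all genes tested. The 18 members of 8000 bases and more showed medians of −0.22 (log2, SETBP1-D868N) and 0.70 (PF-9363), which became −0.06 and 0.35 with an offset for length and GC content. The 38 shorter members had medians of 0.10 and −0.41, and of 0.12 and −0.41 with the offset. Libraries also differed in the share of counts from transcripts that long. It was 5.26% in the first luciferase library, 4.55% and 4.57% in the other luciferase libraries, and 4.14%, 4.44% and 4.78% with SETBP1-D868N. With DMSO it was 4.91%, 5.79%, 4.93% and 5.08%, and with PF-9363 5.79% to 5.87%. The mitochondrial share of counts was 0.90% to 1.10% with DMSO and 1.21% to 1.39% with PF-9363. The first luciferase library stood apart over all genes, with a chi-square per degree of freedom of 27.2 and 27.8 against the other luciferase libraries and of 2.28 between those. The part of these differences in the changes of the members was not tested.

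The same offset, which removes the trend of each library on length and GC content, was read for single members. With PF-9363 the log2 fold change of Kmt2a went from 1.16 to 0.63, of Kmt2c from 1.56 to 1.09, of Kmt2d from 1.10 to 0.53 and of Setd1b from 1.29 to 1.05, and all 4 remained called. Dnmt3a went from 1.10 to 0.79 and Tet3 from 1.31 to 0.97. With SETBP1-D868N Kmt2a went from −0.47 to −0.19, Kmt2c from −0.59 to −0.34 and Kmt2d from −0.28 to 0.0029, none of them called. The falls of Dnmt3a (−0.18) and Aff4 (−0.27) remained called. Short members moved little, with Bmi1 at 2.02 and Suv39h1 at −2.39 with PF-9363.

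**Figure D5:**
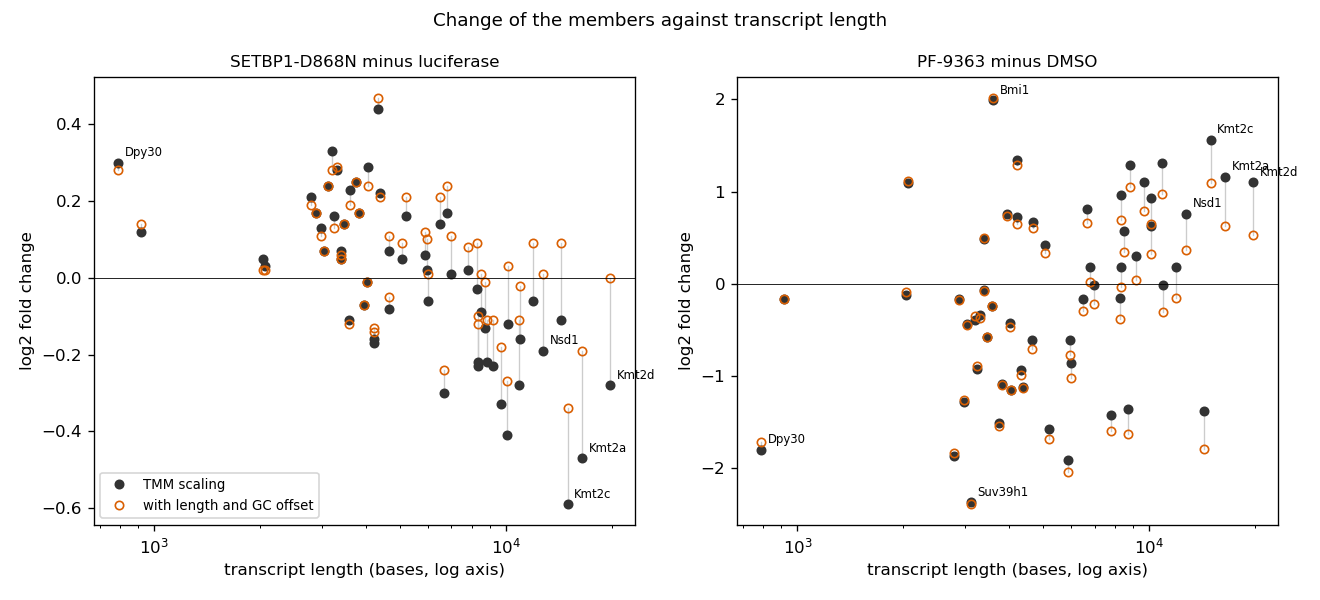
Log2 fold change (vertical axis) against the length of the longest annotated transcript (horizontal log axis, bases) for the 56 members in each comparison. Filled points use TMM scaling alone and open points add the offset for length and GC content, joined by grey lines. The offset moves the points beyond 8000 bases most.

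Partners of the same complexes outside the 56 were counted from a list of 72 genes, of which 70 were tested in each experiment. With SETBP1-D868N 28 were called higher and 11 lower, or 55.7% in all beside 47.2% of all genes. With PF-9363 22 were called higher and 35 lower, or 81.4% beside 76% of all genes. Uhrf1, the factor that brings DNMT1 to replicating DNA, fell with PF-9363 from 208, 185, 185 and 189 CPM to 16.8, 21.7, 9.65 and 12.3 CPM (log2 fold change −3.65, SE 0.18, edgeR adjusted p 1.11e-07). Mbd4, a glycosylase for mismatches at methylated sites, fell by 2.72. Mllt6, a paralog of Mllt10, rose from 17.8, 18.2, 17.6 and 24.8 CPM to 100.2, 94.6, 108 and 98.8 CPM (log2 fold change 2.35, SE 0.095, edgeR adjusted p 1.45e-18), and Kdm7a, a demethylase, rose by 1.99. With SETBP1-D868N the largest called changes were those of Pcgf6 (0.50) and Smyd2 (0.39) upward and of Kdm7a (−0.70) and Kdm3a (−0.35) downward.

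Known targets of KMT2A with menin, or of polycomb, gave the following counts on a list of 12. With SETBP1-D868N 10 were called higher and 2 lower, beside 24.5% and 22.7% of all genes. With PF-9363 5 were called higher and 6 lower, beside 36.6% and 39.4% of all genes. Among them Cdkn2a, a locus of growth inhibitors that BMI1 is known to repress, stood at 6.64, 8.38, 6.37 and 8.26 CPM with DMSO and 90.4, 91.0, 133 and 110.0 CPM with PF-9363 (log2 fold change 3.83, SE 0.14, edgeR adjusted p 2.56e-14). Bmi1 was also higher in the treated libraries, and a relation between these changes was not tested. The list was drawn with earlier results of these libraries known, so its counts are not independent evidence of direction.

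Counting could not be checked for strand. Of the 56 members, 31 overlap an annotated gene on the other strand, such as Psip1 (Snapc3), Nsd2 (Nelfa), Mtf2 (Tmed5) and Dnmt3a (Dnmt3aos). How the counting treated such overlaps is not given in the sources used here.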

How the data were processed

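RNA-seq counts per gene were deposited by the authors as raw counts in 1 table per experiment. The submitters' processing notes name STAR, DESeq2, GRCm38 and mm10. The counting program, annotation and handling of strand are not given in the sources used here. All 14 libraries were used, with groups taken from the labels.

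Each table was fitted separately with edgeR 4.0.16 in R 4.3.3 (filterByExpr with a minimum count of 10, TMM, robust quasi-likelihood test, Benjamini-Hochberg adjustment over all genes tested, threshold 0.05). SE is the log2 fold change divided by the root of F. Alternatives were RLE factors, library size alone, other filters, DESeq2 1.42.0, limma-voom 3.58.1, no robust estimation, a replicate block, a length and GC offset, and leaving out each library. Paralog ratios used counts plus 0.5. Positions and lengths come from GENCODE for GRCm38. The fit was also run on simulated data, and the outcome is not reported here.

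Named genes were the 10 called members with the largest change in the first comparison, the 12 in the second, members called in opposite directions with at least 1.5-fold in either, Kmt2a, Men1, the paralog pairs by ratio, and for partners the 2 largest in each direction. Members and lists were chosen with earlier results of these data known. Of the marker genes, 1 is not reported here.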

Additional observations from a re-analysis of the deposited data

Results flagged for a closer look

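In 8 of the 112 groups of 4 libraries checked (56 members in 2 groups), 1 library stood apart from the other 3. Chance gives about 1 in 20. In the second DMSO library Kdm5a stood at 106 CPM (81.7 to 85.0 in the others), Asxl2 at 93.4 CPM (77.7 to 80.3) and Setd2 at 129 CPM (109 to 113). That library also had the highest share of counts from transcripts of 8000 bases and more among the DMSO libraries (5.79%), and the part of this in the 3 values was not tested. Cbx8 stood at 22.2 CPM in the fourth DMSO library (15.6 to 16.7). With PF-9363, Tet2 stood at 57.4 CPM in the first library (47.0 to 47.7) and Kmt2b at 95.8 CPM in the second (88.4 to 89.5). Ehmt2 stood at 105 CPM in the third library (96.9 to 98.3) and Setd1b at 139 CPM in the fourth (126 to 128).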

How the results depend on the processing

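Of the members called, 19 of 24 with SETBP1-D868N and 42 of 49 with PF-9363 kept their call and direction under every alternative run. The exceptions were Setd1a, Aff4, Cbx2, Phc1 and Nsd3 in the first comparison and Wdr5, Hcfc1, Dot1l, Cbx7, Asxl2, Setd2 and Tet2 in the second. Members called lower with SETBP1-D868N numbered 6, and 10 with DESeq2, and leaving out each library in turn gave 5 to 10. Without robust estimation 1 member (Kmt2c) was called lower at least 1.5-fold, against 0. Partners called lower with SETBP1-D868N numbered 11, and 17 without the filter on low counts. With library size alone 11 members were called at least 1.5-fold higher with PF-9363 instead of 17, and 14 partners higher instead of 22. Members called in the same direction in both comparisons numbered 2, but 1 without the filter and 1 to 4 when each library was left out. The difference in the log2 ratio of Tet2 to Tet3 with SETBP1-D868N ranged from −0.051 to 0.084 when each library was left out. The causes were not tested.

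Values that turned sign were all small. With SETBP1-D868N, library size alone put Hcfc1 at 0.022 and Ehmt2 at 0.042. The length and GC offset put Kmt2b at 0.013, Kmt2d at 0.0029, Hcfc1 at 0.085, Jarid2 at 0.0093, Asxl2 at 0.090, Nsd1 at 0.013, Nsd3 at 0.028 and Tet1 at 0.094. With PF-9363, library size alone put Dot1l at −0.052, Asxl2 at −0.054 and Setd2 at −0.047, and the offset put Asxl2 at −0.15 and Setd2 at −0.028. RLE size factors put Asxl1 at 0.013 and Kdm5a at 0.016, and DESeq2 put Asxl1 at 0.013 and Kdm5a at 0.015. Leaving out each library in turn gave these ranges of log2 fold change with SETBP1-D868N: Hcfc1 −0.13 to 0.11, Eed −0.010 to 0.045, Cbx7 −0.0018 to 0.13, Asxl1 −0.019 to 0.037, Asxl2 −0.12 to 0.012, Nsd2 −0.015 to 0.050, Ehmt1 −0.0059 to 0.049, Ehmt2 −0.023 to 0.0037, Dnmt1 −0.017 to 0.13 and Tet1 −0.32 to 0.037. With PF-9363 the ranges were Asxl1 −0.047 to 0.015 and Kdm5a −0.054 to 0.079.

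Replicate numbers did not pair the libraries, with same-number correlations of deviations of −0.226, −0.042 and −0.184 for the luciferase and SETBP1-D868N libraries and of −0.036 to 0.02 for the drug experiment. With the replicate number as a block, 16 members were called higher and 4 lower with SETBP1-D868N, and 24 higher and 25 lower with PF-9363. Depth in the second experiment limits Tet1 and Dnmt3b, the members with the fewest counts.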

Other observations

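Partners of the members were also counted by role. Of 8 partners of the H3K9 methyltransferases, 6 were called higher and none lower with SETBP1-D868N (24.5% of all genes were higher), and under PF-9363 1 rose and 7 fell (median −0.90 on the log2 scale, with 39.4% of all genes lower). All 4 partners in DNA demethylation were called lower with PF-9363 (median −0.96). Of 9 further histone demethylases, none was called higher and 5 lower with SETBP1-D868N, where 22.7% of all genes were lower. With PF-9363 4 of these demethylases were called higher and 3 lower, beside 36.6% and 39.4% of all genes. Mast cell and basophil markers summed to 1070 to 1360 CPM with DMSO and 3990 to 4830 CPM with PF-9363.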
